A study of Mus musculus with 386 samples.

Results

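The genes described here encode the protein subunits of the cytosolic ribosome. They were taken from the gene table by symbol: Rpl or Rps followed by a digit, leaving out pseudogene rows marked -ps and the Rps6k kinases. The rule found 89 genes of 54658. Of these, 73 are the canonical genes, 43 of the large and 30 of the small subunit, and 16 are paralogues, retrocopies or genes that only share the symbol pattern, which are shown apart. Another 7 ribosomal protein genes have symbols outside the pattern, among them Rplp0, Rplp1, Rplp2, Rpsa, Fau and Rack1, and are given for comparison.

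Ribosomal proteins assemble with ribosomal RNA in the nucleolus into the large subunit, which forms peptide bonds, and the small subunit, which decodes the mRNA. Most of their mRNAs start with a cytosine followed by a run of pyrimidines, the 5' terminal oligopyrimidine tract, through which mTOR and Larp1 control their translation. A growing oocyte makes and stores large numbers of ribosomes that the early embryo uses before its own are made. Several canonical genes lie on the X chromosome, and some of these have autosomal copies that are best known from male germ cells, where the X is silenced during meiosis.

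The cells are female germ cells of the mouse, hand-picked from ovaries at embryonic day 17.5 (E17.5) and postnatal days 2.5 and 6.5 (P2.5, P6.5). Each library was made from 1 cell with Smart-seq2, which copies polyadenylated RNA, and no treatment or genotype is named. The labels give a stage but no animal, litter, pool or strain, so each stage is 1 sample made of many cells and no difference between stages was tested. Of 386 libraries, 22 came from E17.5, 47 from P6.5 and the rest from P2.5. There were 24 pairs of P2.5 libraries that differed by little more than the sampling of reads, and each pair was counted as 1 cell, which left 362 cells. Library totals ran from 1016746 to 16125066 counts at E17.5, from 435560 to 23982709 at P2.5 and from 5714357 to 15799302 at P6.5.

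The germ cell labels were checked against Ddx4 and Dazl. The median cell had 453 CPM of Ddx4 at E17.5, 271.6 at P2.5 and 430 at P6.5 (CPM, counts scaled to a total of 1000000), and 951, 622 and 515 CPM of Dazl. In 4 of the 22 E17.5 libraries a list of 6 germ cell genes summed to only 246.6 to 705 CPM, against 1175 to 5294 CPM in the other 18. E17.5 libraries also carried RNA of other cells. A list of 5 erythroid genes summed to 214.3 to 5863 CPM in all 22, and 5 mast cell genes reached 1386 to 111618 CPM in libraries 1 to 10 but at most 25.4 CPM in libraries 11 to 22. Their medians at P2.5 were 9.40 CPM for the erythroid and 0 CPM for the mast cell list, and at P6.5 0.988 and 0 CPM. A list of 7 granulosa cell genes ran from 2.03 through a median of 55.8 to 1622 CPM at E17.5, and was highest in libraries 16, 18 and 19, with medians of 2.86 CPM at P2.5 and 3.73 at P6.5. Library 18, with the highest granulosa sum, had a canonical ribosomal protein sum of 58302 CPM. The part that this RNA plays in the E17.5 values was not tested. Erythroid RNA was present in all 22 libraries and could not be left out. The summed level, the medians and some of the genes named below are also given for part of the E17.5 libraries, here or in the closing section.

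Sequences of 5 transcript starts are shown because they carry or lack the pyrimidine tract that marks this gene family. Each is a window of 30 bases that begins 15 bases before the annotated start, from RefSeq on GRCm38.p6, with the tract in capitals.
Rpl35, chr2:39005117-39005146, minus strand: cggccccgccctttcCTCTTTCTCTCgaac
Rps27, chr3:90213634-90213663, minus strand: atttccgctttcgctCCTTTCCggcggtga
Rpl38, chr11:114668565-114668594, plus strand: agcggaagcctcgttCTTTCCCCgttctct
Rpl9, chr5:65391417-65391446, minus strand: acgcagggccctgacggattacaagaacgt
Rps4x, chrX:102189377-102189406, minus strand: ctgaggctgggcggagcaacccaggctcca

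The tract was counted from the annotated start in Rpl35, Rps27 and Rpl38, although pyrimidines also stand right before that start in all of these windows. The windows of Rpl9 and Rps4x hold none. These 5 windows do not show how the tract goes with the change between stages described below. Rps12 and 1 of 2 starts of Rpl10a carry a tract nearby. Both genes had lower levels at P2.5 than at E17.5 (log2 ratios -1.27 and -1.18). Rpl41 carries none and had a higher level (1.01). The tract was searched on the transcribed strand as a C followed by at least 4 letters that are each C or T. RefSeq starts were matched for 54 of the 73 canonical genes, 64 starts in all. A C with such a run stood at the annotated start in 12 of the 64 (18.8%), against 2.51% of all 32851 starts in the table, and its C lay within 10 bases of 35 of the 64 (54.7%), against 30.7% of all starts. Searched on both strands of the 300 bases around the start, CCGGAAG was found at 35.9% of canonical starts and 8.86% of all starts, GGGCGG at 59.4% and 35.7%, AAGATGG at 17.2% and 6.34%, and TATAAA at 7.81% and 13.6%. These are matches of letters, and binding at them was not measured. For the 33 measured canonical genes with a tract within 10 bases, the median log2 ratio of P2.5 over E17.5 was -0.44. For the 20 without one it was -0.25. Split by a tract at the start itself, the medians were -0.20 for 12 genes with it and -0.39 for 41 without.

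As a share of the RNA counted, the canonical ribosomal protein genes were highest at E17.5 and lowest at P6.5. Their counts made up 4.16% of all gene counts at E17.5, 3.08% at P2.5 and 2.701% at P6.5. In single cells the summed level ran from 22158 CPM through a median of 37232 to 67836 CPM at E17.5, from 16155 through 30377 to 52193 CPM at P2.5, and from 17789 through 27495 to 33954 CPM at P6.5. The stages overlapped widely: most P2.5 cells were below the median at E17.5, but only 6.14% of them were under the lowest E17.5 cell. The 4 E17.5 libraries low in germ cell genes lay high, at 40031 to 67836 CPM, and the other 18 had a median of 35030 CPM. The log2 ratio of the summed level was -0.43 for P2.5 over E17.5 and -0.27 without those 4 libraries.

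Set against the spike-ins the order was the opposite. ERCC spike-ins are synthetic RNAs added to each cell, and counts per spike-in count follow the RNA in a cell if every cell received the same amount, an amount not given here. The median cell had 3.08 canonical ribosomal protein counts per spike-in count at E17.5, 13.97 at P2.5 and 92.1 at P6.5. Each step between medians was several-fold, 4.54 for the earlier and 6.59 for the later. In 78.2% of P2.5 cells the value exceeded the highest at E17.5, and in 59.6% of P6.5 cells it exceeded the highest at P2.5. The counts of all genes per spike-in count moved in the same direction, with medians of 81.3, 464.9 and 3203 and steps of 5.72-fold and 6.89-fold.

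**Figure D1:**
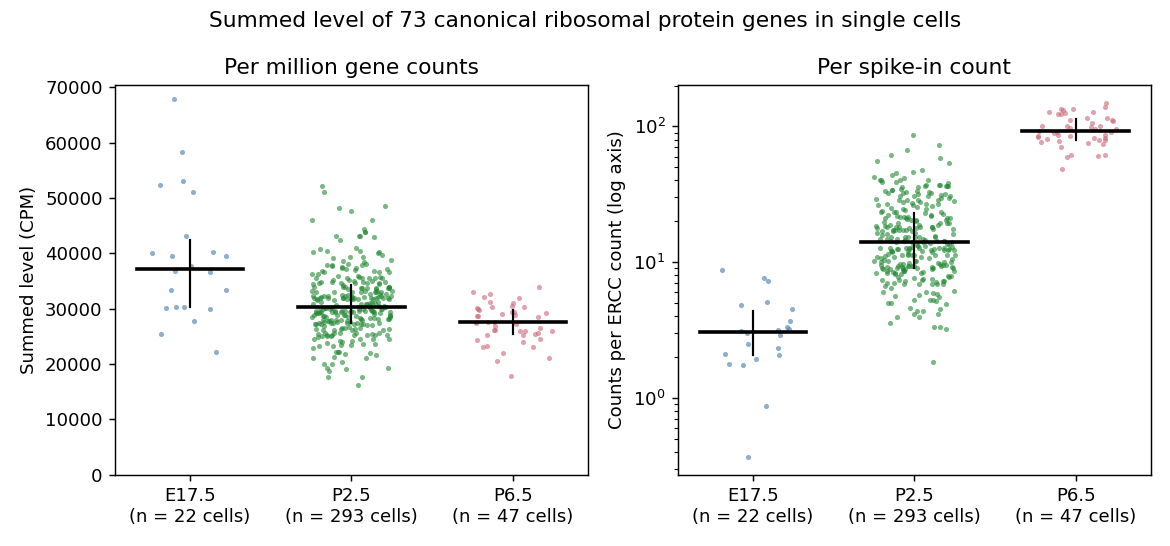
Summed level of the 73 canonical ribosomal protein genes in each cell by stage, in CPM (left, linear axis from 0) and as counts per ERCC spike-in count (right, log axis). Points are cells, thick bars medians and thin bars quartiles. The medians go down from 37232 to 27495 CPM on the left and up from 3.08 to 92.1 on the right.

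Gene by gene, most canonical genes had a lower level at P2.5 than in E17.5 cells, with a spread of ratios among them. Of the 72 canonical genes measured (at least 1 CPM in either stage and a count in at least 3 cells), 3 were higher by 2-fold or more in P2.5 cells (Rpl35, Rps27 and Rpl41) and 8 were lower by as much, after adding 0.5 CPM to both stages. Among all 17421 genes measured 22.6% were at least 2-fold higher and 32.4% at least 2-fold lower. Both counts of canonical genes are below these shares. The median log2 ratio of the canonical genes was -0.37, that of all genes -0.26, and 51 canonical genes had ratios below 0 and 21 above. The split of higher against lower calls depended on the scale and libraries: 7 against 2 with TMM scaling, 6 against 3 with median-of-ratios scaling, 1 against 19 in the FPKM table, and 5 against 5 without the 4 E17.5 libraries low in germ cell genes. Set against all genes under the same setting, the canonical median was lower by 0.11 in the main comparison and by 0.65 in the FPKM table, and higher by 0.0020 without those 4 libraries.

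Of the 8 genes with lower levels by 2-fold or more, 5 were of the large and 3 of the small subunit. Rpl3 (chr15:80077791-80091868, minus strand), whose protein reaches toward the peptidyl transferase centre, ran from 497 through a median of 1131 to 2472 CPM in E17.5 cells. In P2.5 cells it ran from 142.3 through 492 to 918 CPM, and in P6.5 cells from 200.7 through 368 to 593 CPM. All P2.5 cells were under the median of E17.5, and 52.6% of them were under the whole E17.5 range. The stage sums differed by a log2 ratio of -1.41. Rpl10a, the protein of the L1 stalk, stood at a median of 722 CPM in E17.5 cells and 313.9 in P2.5 cells, with a log2 ratio of -1.18 and 64.2% of P2.5 cells below every E17.5 cell. Without the 4 E17.5 libraries low in germ cell genes the log2 ratio was -1.13 for Rpl3 and -1.21 for Rpl10a. Rpl9 (-1.10), Rpl7 (-1.10) and Rpl8 (-1.07) were the other large-subunit genes. Of the small subunit, Rps12 stood at a median of 274.9 CPM in E17.5 cells and 125.03 in P2.5 cells (log2 ratio -1.27), and Rps9 had a log2 ratio of -1.003. Rps10 (-1.35) also passed, but only with 5.64 CPM in E17.5 and 1.91 CPM in P2.5 cells. In the FPKM table the ratios of Rpl3, Rps12, Rpl10a, Rpl9, Rpl7 and Rps9 were all beyond 2-fold too, from -2.04 for Rps12 to -1.28 for Rpl7, and Rpl8 was at -0.99. Of 12 alternative settings, Rpl3 was lower by 2-fold or more in 11, Rps12 in 10, Rpl10a in 8, Rpl7 in 7, Rpl9 in 6, Rps9 in 5 and Rpl8 in 4, and with spike-in scaling all 7 were above 0.

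Rpl35, Rps27 and Rpl41 were the genes with the opposite course. Rpl35 (chr2:39001580-39005624, minus strand), a protein at the exit of the peptide tunnel, ran from 10.2 through 28.5 to 43.5 CPM at E17.5. It ran from 28.9 through 95.4 to 209.02 CPM at P2.5, with 97.95% of P2.5 cells over the whole E17.5 range and a log2 ratio of 1.70. Of its exon bases 66.2% are shared with Wdr38 on the other strand, and as the strand setting of the counting is not given, reads of the 2 genes cannot be told apart. Rps27, a zinc-binding protein of the small subunit, stood at a median of 323 CPM in E17.5 cells, 825 in P2.5 and 582 in P6.5 cells, with a log2 ratio of 1.25 for P2.5 over E17.5. Its copy Rps27rt has the identical coding sequence. Rpl41, among the shortest proteins known, had medians of 222.1, 534 and 514 CPM, and a log2 ratio of 1.01. In the FPKM table Rpl35 was at 1.01, Rps27 at 0.38 and Rpl41 at 0.30, so that Rpl35 alone was at least 2-fold higher in both tables. Without the 4 E17.5 libraries low in germ cell genes, the ratios by counts were 1.85 for Rpl35, 1.31 for Rps27 and 1.24 for Rpl41. Rpl23a (0.95) and Rpl38 (0.94) came next by counts, and both were lower at P2.5 in the FPKM table, at -0.66 and -0.74. Rpl23a shares 59.7% of its exon bases with Tlcd1 on the other strand. Per kilobase of coding sequence Rpl23a had 70.2 CPM at P2.5 against 724 FPKM, and Rpl35 had 263.7 CPM against 1538 FPKM.

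The ratio of a gene went with the length of its coding sequence in the counts. Across the 70 canonical genes with at least 20 CPM, the Spearman correlation of the log2 ratio of P2.5 over E17.5 with coding length was -0.63. The median log2 ratio was 0.45 for the 9 genes with up to 300 coding bases, -0.34 for the 40 with over 300 and up to 600, and -0.66 for the 21 with more than 600. The correlation was -0.54 without the E17.5 libraries low in germ cell genes, -0.61 against E17.5 libraries 1 to 10, -0.64 against libraries 11 to 22 and -0.65 over the 62 genes that share under 20% of their exon bases with another gene. Over all 8626 genes with at least 20 CPM it was -0.14, with medians of 0.67 in the shortest class (150 genes), 0.33 in the middle (943 genes) and -0.02 in the longest (7533 genes). In the FPKM table it was -0.25 over the same 70 canonical genes, and the median of the shortest class was -0.57. Genes are not independent replicates, and all points share the same libraries, so these correlations carry no p.

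**Figure D2:**
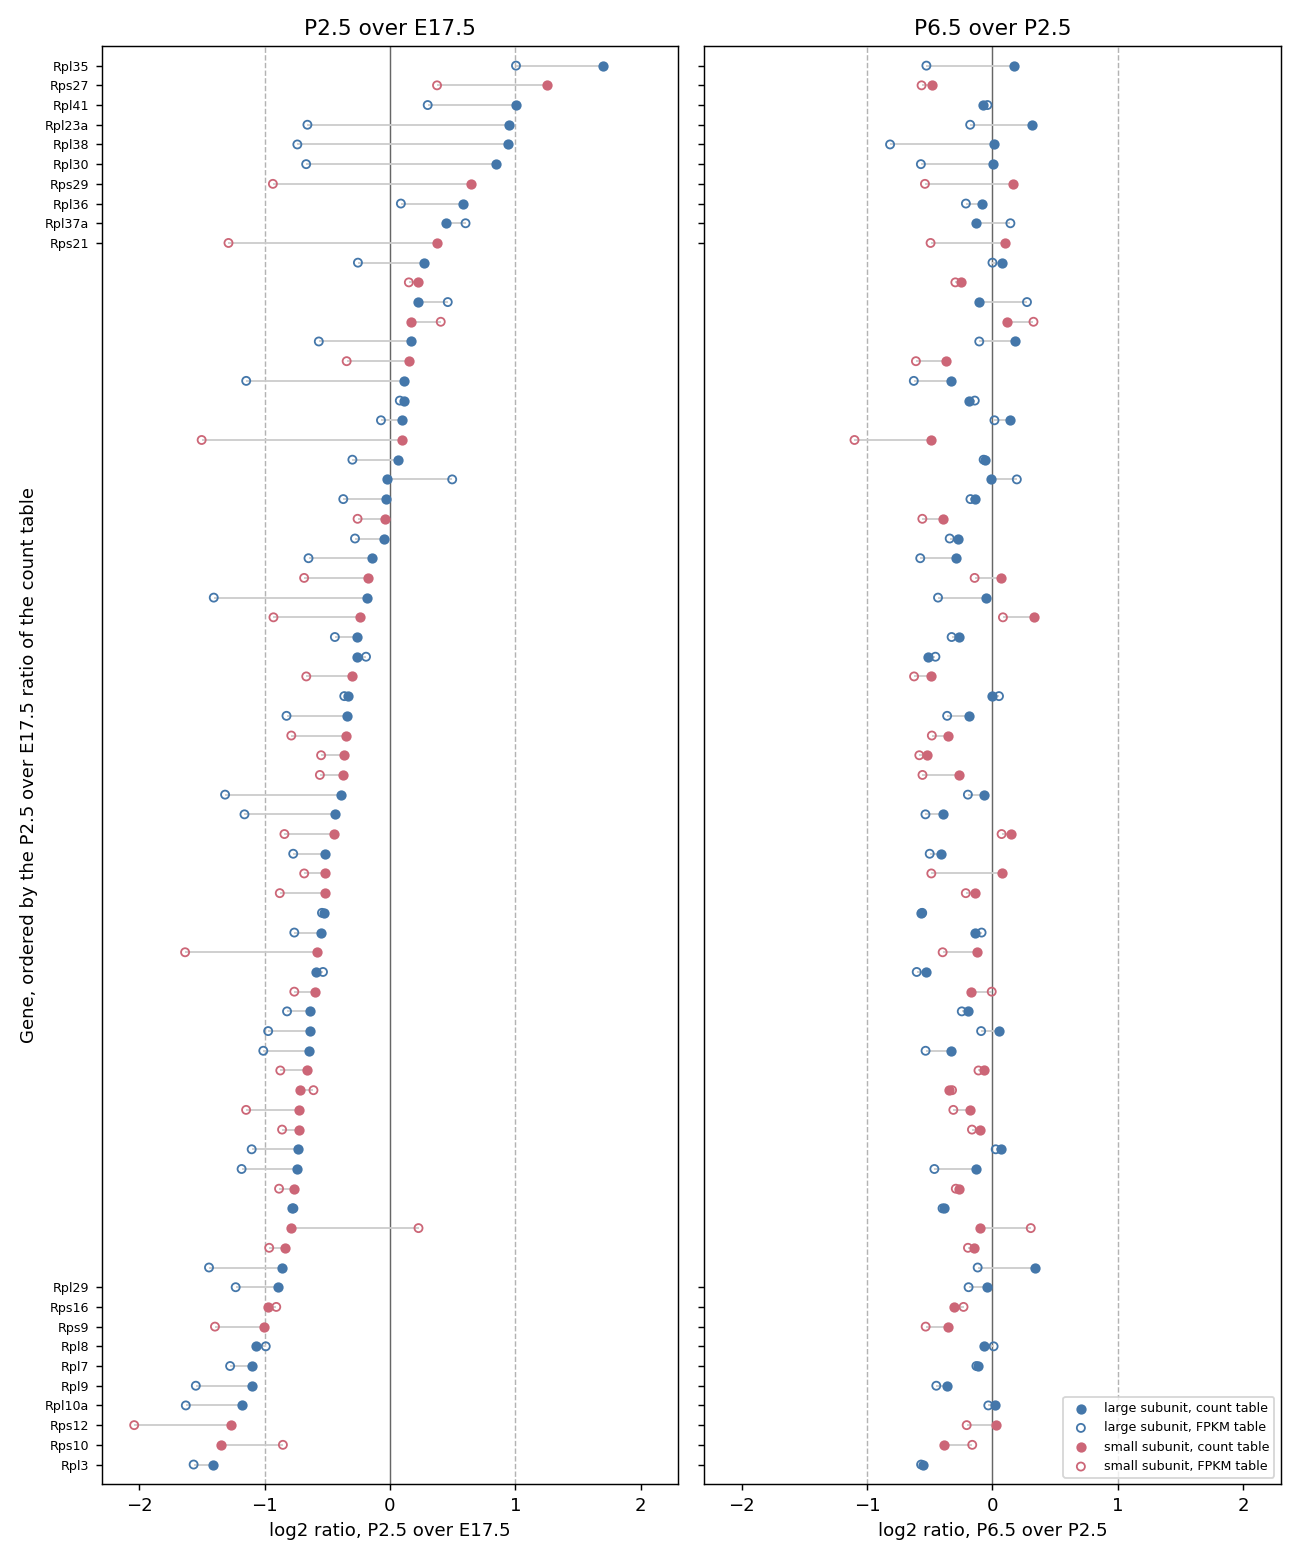
Log2 ratio of each measured canonical gene for P2.5 over E17.5 (left) and P6.5 over P2.5 (right), from the count table (filled) and the FPKM table (open), blue for the large and red for the small subunit. Dashed lines mark 2-fold, and the genes at either end are named. Ratios on the left run from -1.41 for Rpl3 to 1.70 for Rpl35 in the counts, and on the right all filled points lie within 2-fold.

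**Figure D3:**
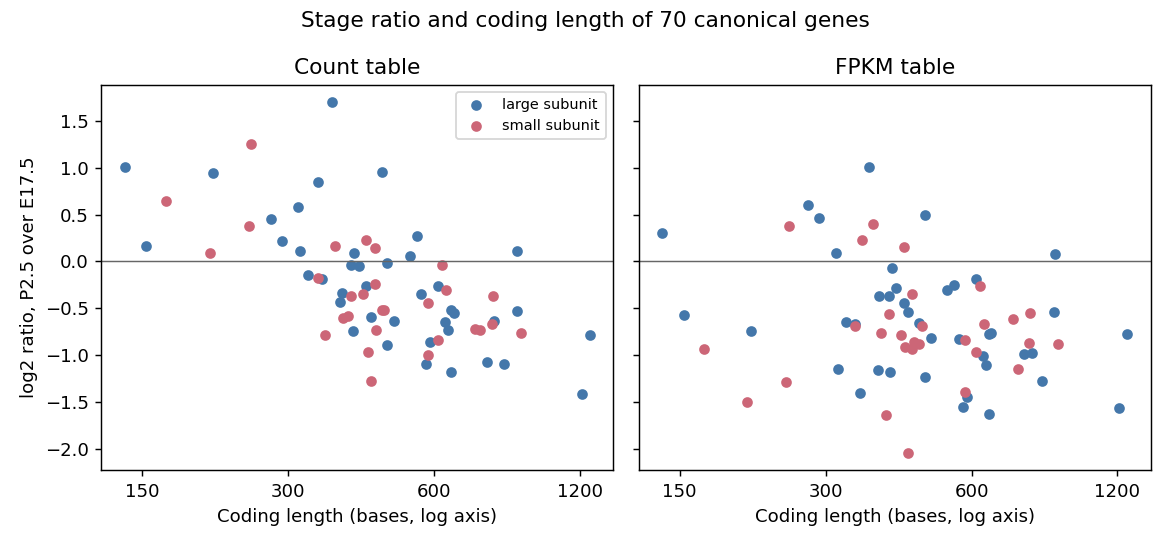
Log2 ratio of P2.5 over E17.5 against coding length (log axis) for the 70 canonical genes with at least 20 CPM, from the count table (left) and the FPKM table (right). Points go down with length on the left, where the Spearman correlation is -0.63, and less so on the right, where it is -0.25.

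The 2 deposited tables disagreed on some genes. Of the 72 canonical genes, 49 were lower at P2.5 in both tables and 9 higher in both, while 12 were higher by counts and lower by FPKM and 2 the reverse. Among the 12 were Rps29 (0.65 by counts, -0.93 by FPKM), Rps21 (0.38 and -1.29) and Rpl30 (0.84 and -0.67). Rpl24, Rps10 and Rpl13a were almost missing from the counts, at 0.20, 1.91 and 6.34 CPM at P2.5, but had 668, 795 and 661 FPKM. Each shares exon bases with an annotated neighbour on the same strand: 46.99% for Rpl24 (Gm28037), 20.6% for Rps10 (RPS10-NUDT3) and 35.4% for Rpl13a (Gm45713). The levels of the canonical genes are therefore ordered on the FPKM scale, which is per length, and the shares of pairs of genes are given on both scales.

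On that scale at P2.5 the canonical genes differed widely in level. Rps29 (3103), Rps27 (2635), Rpl32 (1946) and Rpl13 (1906) were among those with the highest mean FPKM. Rpl12 (171.2), Rpl22 (236.5), Rpl27a (243.5), Rpl37 (255.3) and Rpl21 (268.2) had the lowest. The order of the canonical genes by CPM was close between stages, with a Spearman correlation of 0.85 between E17.5 and P2.5 and of 0.96 between P2.5 and P6.5.

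Between P2.5 and P6.5 the canonical genes differed little from each other. None of the 72 was at least 2-fold higher and none at least 2-fold lower, against 6.9% and 9.3% of the 14643 genes measured. The median log2 ratio was -0.13 (all genes -0.18), and 53 ratios were below 0 and 19 above. With TMM scaling the canonical median was 0.10 and with median-of-ratios scaling 0.20, so the direction rests on the scale. Against the median of all genes it was higher by 0.0495, 0.0535 and 0.0533 under these 3 scales. It was lower than that of all genes by 0.18 in the FPKM table, by 0.067 from medians of single-cell CPM and by 0.13 with no filter, so its place among all genes depends on the setting too. The lowest were Rpl6 (-0.57), Rpl3 (-0.55), Rpl27a (-0.53), Rps3a1 (-0.52) and Rpl15 (-0.51), and the highest Rpl19 (0.34), Rps13 (0.33), Rpl23a (0.32), Rpl39 (0.18) and Rpl35 (0.17). Of the highest, Rpl19 (-0.12), Rpl23a (-0.18), Rpl39 (-0.10) and Rpl35 (-0.53) were below 0 by FPKM. Both tables put 47 genes lower and 6 higher at P6.5, while 13 were higher by counts only and 6 by FPKM only. Of the P6.5 cells, 4.26% were above the P2.5 median for Rpl3. By FPKM the ratio of Rps28 alone was beyond 2-fold (-1.10).

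Among the genes shown apart, 4 are copies of X-linked genes, and these are described before the others. Rps4l on chromosome 6 (chr6:148354656-148355598, plus strand), annotated in GENCODE M21 as a transcribed processed pseudogene, is a copy of Rps4x without introns. It ran from 51.1 through 230.8 to 638 CPM in E17.5 cells, from 316.3 through 607 to 1172 CPM in P2.5 cells and from 397 through 561 to 871 CPM in P6.5 cells. Every P2.5 cell was above the E17.5 median, and the log2 ratio of P2.5 over E17.5 was 1.34 by counts and 1.12 by FPKM. Over the same step Rps4x, the parent on the X, had a log2 ratio of -0.66. By summed counts, which are not per length, Rps4l held 22.6% of the pair at E17.5, 53.98% at P2.5 and 54.5% at P6.5. Its share of the pair's FPKM in the median cell was 20.9%, 53.2% and 52.95%, and its FPKM was above that of Rps4x in 66.6% of P2.5 cells, 2 of 22 E17.5 cells and 33 of 47 P6.5 cells. In the 4 E17.5 libraries low in germ cell genes its share was 5.03 to 13.9%, and in the other 18 it was 8.94 to 59.7% with a median of 31.2%. Without the 4 libraries the log2 ratio of Rps4l was 1.03.

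The opening 150 coding bases of the parent and the matching stretch of the copy are shown, since the reads of the 2 genes are told apart by the differences between them. Capitals mark the 31 bases that differ.
Rps4x: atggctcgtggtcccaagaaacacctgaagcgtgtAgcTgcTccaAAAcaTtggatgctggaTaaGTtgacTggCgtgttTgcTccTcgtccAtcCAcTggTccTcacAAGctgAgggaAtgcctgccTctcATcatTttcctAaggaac
Rps4l: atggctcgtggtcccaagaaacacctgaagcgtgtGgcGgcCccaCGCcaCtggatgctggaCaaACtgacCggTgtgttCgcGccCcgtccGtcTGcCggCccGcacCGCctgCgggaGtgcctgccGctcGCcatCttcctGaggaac

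Over the 783 aligned bases of the 789 that code for Rps4x, Rps4l was 79.9% identical, without a gap and without a stop codon in the frame of the parent. The longest identical run was 35 bases, shorter than the reads of 150 bases.

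Rpl39l on chromosome 16 (chr16:10170226-10174911, plus strand), a copy of X-linked Rpl39, a protein of the peptide exit tunnel, was also higher after birth. It ran from 1.66 through 23.3 to 133.9 CPM at E17.5, from 19.5 through 75.8 to 290.3 CPM at P2.5 and from 19.4 through 78.4 to 124.999 CPM at P6.5. The ranges overlap, with 98.6% of P2.5 cells above the E17.5 median and 8.19% above every E17.5 cell. The log2 ratio of P2.5 over E17.5 was 1.48, and that of Rpl39 was 0.17. Its share of the pair was 16.8%, 33.7% and 31.2% of counts at the 3 stages, and 4.21%, 17.8% and 17.6% of FPKM in the median cell. In the 4 E17.5 libraries low in germ cell genes Rpl39l was at 1.66 to 6.10 CPM, and without them the log2 ratio was 1.04. The coding sequences are shown over the stretch that aligns, with the 22 differing bases in capitals.
Rpl39: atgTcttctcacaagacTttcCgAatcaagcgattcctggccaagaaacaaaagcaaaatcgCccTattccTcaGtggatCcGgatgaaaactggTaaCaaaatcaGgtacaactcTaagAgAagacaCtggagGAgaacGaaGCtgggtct
Rpl39l: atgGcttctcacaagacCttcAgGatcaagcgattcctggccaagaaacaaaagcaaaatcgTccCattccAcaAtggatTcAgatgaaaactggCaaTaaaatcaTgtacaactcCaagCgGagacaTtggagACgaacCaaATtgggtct

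Rpl10l on chromosome 12 (chr12:66283379-66284401, minus strand), the copy that replaces X-linked Rpl10 during male meiosis, was highest at P2.5. It ran from 4.54 through 56.2 to 301.4 CPM at E17.5, from 18.1 through 111.7 to 441 CPM at P2.5 and from 10.7 through 32.8 to 93.4 CPM at P6.5. No P6.5 cell reached the P2.5 median, and 17.02% of P6.5 cells lay below every P2.5 cell. The log2 ratio was 0.86 for P2.5 over E17.5 and -1.74 for P6.5 over P2.5 (-1.84 by FPKM), while Rpl10 was at -0.73 and 0.07. Rpl10l held 6.99%, 18.6% and 6.04% of the pair's counts, and 2.71%, 11.5% and 3.47% of its FPKM in the median cell. The coding sequences were 84.7% identical, with a longest identical run of 23 bases. Rpl36al, the fourth copy of an X-linked gene, shares 24.5% of its exon bases with Gm49383, was at 1.23 CPM but 551 FPKM at P2.5, and its counts are not read further.

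**Figure D4:**
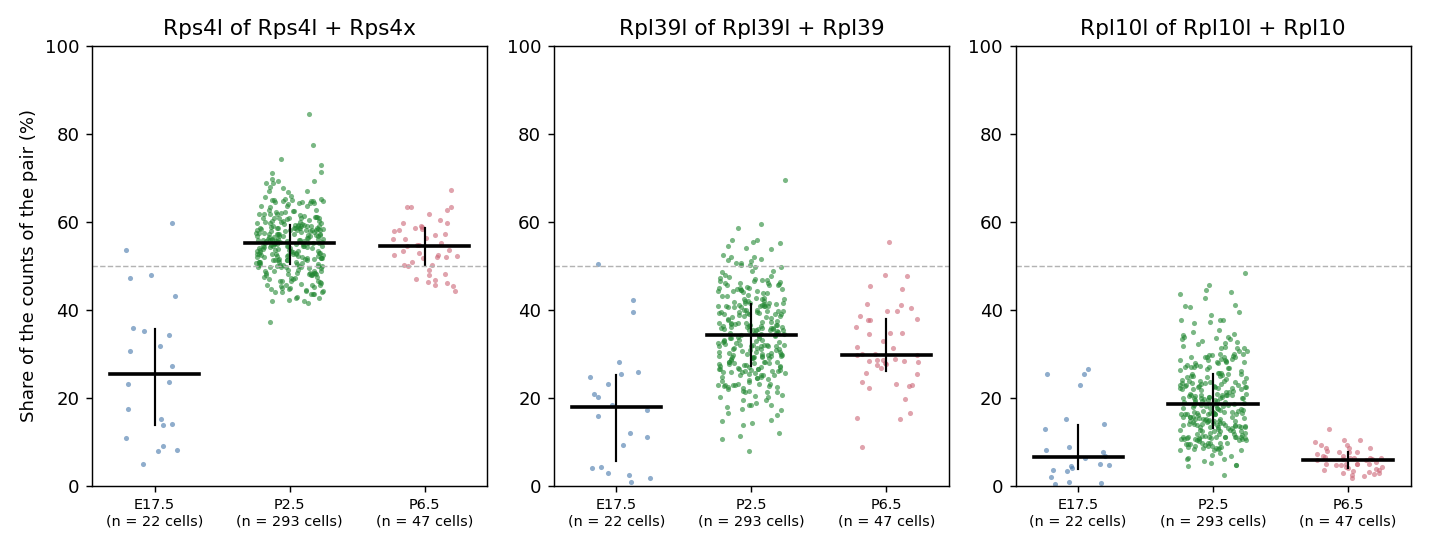
Share of the counts (not per length) of a pair of genes that belong to the autosomal copy, in each cell by stage, for Rps4l with Rps4x, Rpl39l with Rpl39 and Rpl10l with Rpl10. Points are cells, thick bars medians, thin bars quartiles and the dashed line an equal split. The median share of Rps4l goes from 25.4% at E17.5 to 55.2% at P2.5 and 54.6% at P6.5, and that of Rpl10l from 6.57% to 18.6% and back to 5.95%.

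The copies of autosomal genes divided by how well reads can tell them from their parents. Rpl22l1 (74.2% identical to Rpl22 over the aligned stretch), known to act in opposition to Rpl22, held 12.8%, 18.03% and 29.6% of the pair's counts in the median cell of the 3 stages. By FPKM its share was 75.7%, 59.1% and 64.7%, so that the tables differ on both the size and the course of the share. Its log2 ratios were 0.18 and 0.39 by counts, but -2.13 and -0.18 by FPKM. Rps27l (76.2% identical to Rps27), a target of p53, had log2 ratios of 0.25 and -0.12 by counts, but -0.43 and -0.42 by FPKM. Rpl7l1, a nucleolar relative of Rpl7, had -0.39 and -0.74. Rpl3l, the form of Rpl3 in heart and skeletal muscle, was at 3.93, 0.64 and 0.30 CPM, with counts in 12 of 22 cells at E17.5, 87 at P2.5 and 5 of 47 at P6.5. After each cell was reduced to 400000 counts it was seen in 7, 28 and 3 cells.

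The near-identical copies cannot be separated from their parents with confidence. The coding sequence of Rps27rt matched that of Rps27 at every base, and that of Rpl37rt differed from Rpl37 at 1 base. Rpl37rt was 2-fold or more higher at P2.5 than at E17.5 (log2 ratio 1.63, 2.38 by FPKM), with 75.8% of P2.5 cells above every E17.5 cell. Rps27rt was 2-fold or more lower at P6.5 than at P2.5 (-1.27, and -0.59 by FPKM). Rps3a2 (99.5% identical to Rps3a1), Rps3a3 (98.99%), Rpl6l (98.7%) and Rpl32l (96.04%) are annotated as processed pseudogenes and lay between 3.51 and 7.47 CPM at P2.5. For Rps3a2 the log2 ratio of P2.5 over E17.5 was -1.20 (-0.42 by FPKM), and for Rpl3l it was -1.95. Rps12l1 was listed at 0 counts throughout. Rps19bp1 shares the symbol pattern but encodes a binding partner of Rps19, and had log2 ratios of 0.59 and -0.18. In all, of the 15 measured genes shown apart, 3 were 2-fold or more higher and 2 were 2-fold or more lower for P2.5 over E17.5, against 22.6% and 32.4% of all genes measured. For P6.5 over P2.5 these counts were 0 and 2 of 14, against 6.9% and 9.3%.

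Of the 7 ribosomal protein genes with other symbols, 6 had ratios of P2.5 over E17.5 below 0, and 3 of these were lower by 2-fold or more, against 32.4% of all genes measured. Rplp0, the base of the stalk that recruits elongation factors, had 2611, 814 and 979 CPM at the 3 stages and log2 ratios of -1.68 and 0.27. Rack1, a signalling scaffold on the small subunit, was at -1.58 and -0.04, and Rpsa at -1.14 and -0.13. Between the median cells of E17.5 and P2.5, Rack1 went from 530 to 270.6 CPM and Rpsa from 1192 to 619 CPM, both under 2-fold. Rplp0 went from 1936 to 783 CPM by that measure. The other stalk proteins Rplp1 (-0.86 and -0.11) and Rplp2 (-0.71 and 0.12) were within 2-fold in both comparisons. Fau, which encodes a small-subunit protein fused to a ubiquitin-like one, was at 0.23 and 0.11.

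Genes that act with the ribosomal proteins did not move as one group, and their counts for P2.5 over E17.5 stand against 22.6% of all genes higher and 32.4% lower by 2-fold or more. Of 14 other mRNAs with a pyrimidine tract, which include translation factors, 3 were lower by 2-fold or more in P2.5 cells and none was higher by as much, with a median log2 ratio of -0.58. They ran from Pabpc1 (-1.91), the poly(A)-binding protein, and Npm1 (-1.46) to Tpt1 (-0.09) and Eef1d (0.68). Of 12 regulators of these mRNAs and of ribosome production, 2 were higher and 3 lower by the same measure. From the summed counts of a stage, Mycn was at 18.7 CPM at E17.5 and 0.09 at P2.5, and Myc at 25.9 and 1.83 CPM. The median E17.5 cell had only 5.24 CPM of Mycn and 5.71 of Myc, and the median P2.5 cell 0 of both. Eif4ebp1, an inhibitor of cap-dependent translation under mTOR, went from 82.8 to 247.1 CPM (1.57) and the S6 kinase gene Rps6kb2 from 20.8 to 59.5 CPM (1.49). Of 12 genes of RNA polymerase I, which transcribes ribosomal RNA, 2 were at least 2-fold higher (Taf1a 1.497, Polr1e 1.17) and none at least 2-fold lower, with Taf1b (-0.70) and Ubtf (-0.65) lowest. Of 40 ribosome biogenesis genes, 2 were higher (the kinase Riok1 at 2.22 and Eif6, which keeps free large subunits apart from small ones, at 1.06) and 4 lower, led by Ddx21 (-1.46) and Gar1 (-1.20), with a median of -0.15. None of the 7 measured chaperones of single ribosomal proteins passed 2-fold, from Heatr3 (-0.67) and Tsr2 (-0.44) to Bccip (0.40) and Pdcd2l (0.64).

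From P2.5 to P6.5 the biogenesis genes had a median log2 ratio of -0.31, and 33 of 40 were below 0. Of these, 3 were at least 2-fold lower, Rrs1 (-1.56), Dkc1 (-1.28) and Gnl3 (-1.01), and none was at least 2-fold higher, with Riok1 (0.78) and Utp4 (0.46) highest. Over all genes 6.9% were higher and 9.3% lower by that measure. Of the 7 chaperones, 2 were at least 2-fold lower, Bccip (-1.24) and Heatr3 (-1.03), with a median of -0.59. Of the 12 RNA polymerase I genes 1 was, Ttf1 (-1.56), and of 11 measured regulators 2 were, Myc (-1.47), which was under 2 CPM at both stages, and Larp1 (-1.01). None of these 3 lists had a gene at least 2-fold higher. The tract-bearing mRNAs were at a median of -0.28, with none past 2-fold. A list of 16 oocyte growth genes, in contrast, went from 896 to 12504 and 45365 CPM in sum over the 3 stages.

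Within P2.5, cells with more RNA did not have a visibly larger share of ribosomal protein mRNA. The Spearman correlation across cells of the summed canonical level with gene counts per spike-in count was 0.012, and it was between -0.0024 and 0.0768 under the 4 alternatives tried. Both axes come from the same libraries and share their depth, so these correlations are a description. The summed level correlated at -0.35 with the number of genes that had a count, at -0.27 with the oocyte growth list, at 0.37 with the mitochondrially encoded genes, at 0.36 with the other tract-bearing mRNAs and at -0.20 with the biogenesis genes. It was at 0.88 with the 7 ribosomal protein genes of other symbols.

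**Figure D5:**
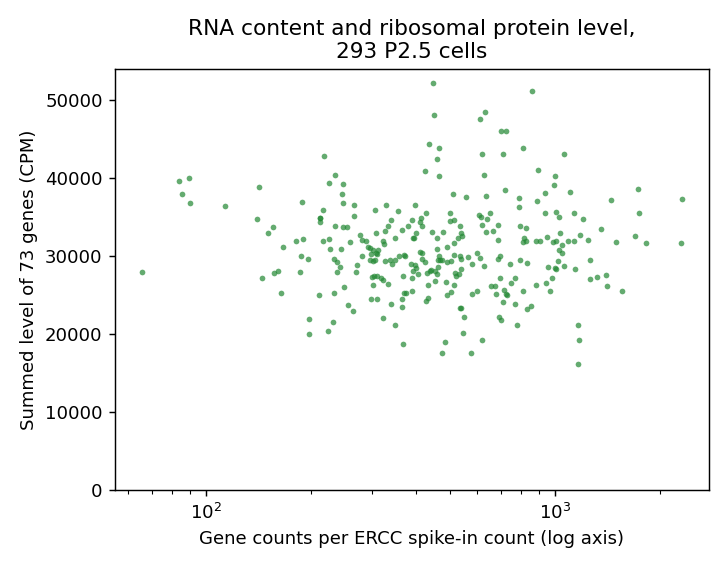
Summed level of the 73 canonical genes (CPM, axis from 0) against gene counts per ERCC spike-in count (log axis) in P2.5 cells. The points spread from 16155 to 52193 CPM with no slope to see, and the Spearman correlation is 0.012.

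The canonical genes varied less between P2.5 cells than most genes with at least 20 CPM did. Their coefficient of variation had a median of 27.1% over 70 genes, against 48.9% over all 7474 genes above that floor. The canonical genes were not compared with genes of matched level, so the part that level plays in this difference was not tested. Of the canonical genes, Rpl6 (16.8%), Rpl4 (18.3%), Rps3 (19.05%), Rpl15 (19.2%) and Rpl14 (20.4%) varied least. Rpl30 (42.97%), Rps12 (41.7%), Rps28 (39.8%), Rpl27a (38.4%) and Rpl39 (37.9%) varied most. The sum of all 73 had a coefficient of variation of 19.1%.

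Most canonical genes went up and down together from cell to cell. Each gene's Spearman correlation with the sum of the others had a median of 0.72 over the 70 genes, from 0.33 for Rpl3 to 0.89 for Rps23, a protein of the decoding centre. The median over the 2415 pairs was 0.53. A gene's correlation with the sum of the others was lower where its coding sequence was longer, with a Spearman correlation of -0.44 with coding length. With gene counts per spike-in count the single genes ran from -0.27 (Rpl27) to 0.30 (Rpl4). With the oocyte growth list 61 of 70 were below 0, and Rps7 was highest at 0.28.

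The copies followed the rest less closely. The correlation with the canonical sum was 0.36 for Rps4l, 0.28 for Rpl39l and 0.26 for Rpl10l, against 0.70 for Rpl22l1 and -0.08 for Rpl7l1. Across P2.5 cells the share of Rpl10l in its pair correlated at -0.50 with the growth list and at -0.17 with gene counts per spike-in count. The level of Rpl10l itself was at -0.40 with the growth list and that of Rpl10 at 0.24. The share of Rps4l was at -0.29 with the growth list and -0.36 with gene counts per spike-in count. In the same order the share of Rpl39l was at -0.06 and -0.08. Among copies of autosomal genes, the share of Rpl22l1 was at -0.22 and -0.12, that of Rps27l at -0.02 and -0.28, and that of Rpl37rt at 0.08 and -0.04.

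Outside the ribosomal protein genes, 7149 named genes with a mean of at least 20 CPM were ranked by their Spearman correlation with the canonical sum across P2.5 cells. The 8 highest were Cox4i1 (0.74), Cox6c (0.66), Snrpg (0.60), mt-Rnr1 (0.60), Cox7c (0.60), Atp5g2 (0.59), Naca (0.59) and Cox8a (0.58). Cox4i1, Cox6c, Cox7c and Cox8a encode subunits of cytochrome c oxidase, Atp5g2 a subunit of ATP synthase, Snrpg a core protein of the spliceosome and Naca a factor that binds nascent peptides at the ribosome. The median over all 7489 genes at that level was -0.06, and the lowest of the ranked genes was at -0.51. The part that coding length or the number of genes with a count plays in this ranking was not tested.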

How the data were processed

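Libraries of single cells were made with Smart-seq2 and KAPA HyperPlus and read from both ends over 150 bases, as the labels' protocols state. Raw counts per gene (54658 gene and 92 spike-in rows) were deposited with 1 column per library. The authors also deposited FPKM values, a scale per gene length and depth. The submitters' processing notes name the build mm10 and the tools RSEM 1.3.3, STAR 2.7.10b and HTSeq 0.13.5. Which tool made which table, the strand setting and the treatment of reads that match several genes are not stated there or in the labels, and the last 2 set how reads of overlapping or near-identical genes were divided.

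Pairs of P2.5 libraries with a median chi-square per gene under 1.5 were summed (24 pairs, 0.686 to 1.03; other pairs 2.84 or more). Counts were summed per stage, scaled to CPM without spike-ins and compared as log2 ratios after adding 0.5 CPM. Gene counts are the main measure. The computed Poisson intervals cover the counting of reads only, which without molecular identifiers are not independent molecules. At 95% they reach at most 0.0594 on the log2 scale to either side for canonical genes with at least 20 CPM. No test was made, since the labels name no animals. Doublets were not called, and marker lists of other cell types were summed instead. Positions, coding lengths and coding sequences are from GENCODE M21 (54106 of 54658 symbols found, all 89 members), and transcript starts from RefSeq. Identity was taken from local alignments. TMM factors were computed with edgeR 4.0.16 and other values with Python 3.11.15, pandas 2.3.3 and scipy 1.17.1.

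The members and lists were chosen with earlier results of these data known. Named are members at least 2-fold apart, up to 5 at either end by ratio, level and coefficient of variation, all genes shown apart, the other ribosomal protein genes, 2 at either end of each other list with at least 5 CPM, and the 8 genes most like the canonical sum. Rps29, Rps21, Rps28, Rps7, Rps23, Rpl27 and Rpl13a were named after their values were seen. The correlations with coding length over subsets of E17.5 libraries, and the copies' shares in those subsets, were added after seeing the data. Some genes that this rule would name are not reported here.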

Additional observations from a re-analysis of the deposited data

How the results depend on the processing

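Adding 1 CPM, using no filter and counting every library as a cell left the medians, sums and counts of canonical genes within counting error or within 1.5 times. For P2.5 over E17.5 the median log2 ratio (-0.37) was -0.0046 with TMM, -0.15 with median-of-ratios and 2.03 with spike-in scaling, -0.76 in FPKM, -0.26 and -0.17 from means and medians of single-cell CPM, -0.26 without the E17.5 libraries low in germ cell genes, and -0.23 and -0.51 against E17.5 libraries 1 to 10 and 11 to 22. In the same order the ratio of the sums (-0.43) was -0.071, -0.21, 1.97, -0.79, -0.33, -0.26, -0.27, -0.32 and -0.52. The 3 genes at least 2-fold higher became 7, 6, 70, 1, 5, 6 and 5 up to the setting without the low libraries. The 8 genes at least 2-fold lower became 2, 3, 0, 19, 5, 3 and 5, and 2 against libraries 1 to 10. For P6.5 over P2.5 the median (-0.13) was 0.10 with TMM, 0.20 with median-of-ratios and 2.80 with spike-in scaling, -0.29 in FPKM and -0.079 from medians of single-cell CPM. The ratio of the sums (-0.19) was 0.048, 0.15, 2.74, -0.32 and -0.14, and -0.18 from means of single-cell CPM. Spike-in scaling made 72 genes at least 2-fold higher, and the FPKM table made 1 at least 2-fold lower. TMM and median-of-ratios scaling shifted the median of all genes by 0.41 and 0.25 in the earlier and by 0.23 and 0.33 in the later comparison. The cause of the other differences was not tested.

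The settings were compared for ratios of at least 2-fold, of members with at least 20 CPM at the higher stage. Spike-in scaling turned Rpl3 to 0.99, Rps12 to 1.12, Rpl10a to 1.22, Rpl9 to 1.298, Rpl7 to 1.303, Rpl8 to 1.33 and Rps9 to 1.40 for P2.5 over E17.5. It turned Rpl10l to 1.17 and Rps27rt to 1.63 for P6.5 over P2.5. No other setting turned one of the ratios compared. Some smaller ratios named above had the opposite sign by FPKM, among them those of Rpl23a, Rpl38, Rps29 and Rps21. Rpl35, Rps4l, Rpl39l and Rpl37rt passed 2-fold for P2.5 over E17.5 under each of 12 alternatives, while Rps27 passed under 11 and Rpl41 under 10, both falling short in FPKM. Without the libraries low in germ cell genes the ratios were -0.91 for Rpl9, -1.01 for Rpl7, -0.69 for Rpl8, -1.06 for Rps12, -0.59 for Rps9 and 1.71 for Rpl37rt. No paired analysis was possible because each stage is 1 sample and no result comes from a test. The E17.5 values rest on 22 libraries and 141253010 counts in all.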

Other observations

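Rows of annotated ribosomal protein pseudogenes, which were not members, had their own course. The rows marked -ps, among them copies of the genes with other symbols, summed to 2211 CPM at E17.5, 844 at P2.5 and 558 at P6.5. Of the 120 measured for P2.5 over E17.5, 66 were at least 2-fold lower and none at least 2-fold higher, against 32.4% and 22.6% of all genes measured, with a median log2 ratio of -1.05. For P6.5 over P2.5 the median was -0.55. Across P2.5 cells their sum correlated at 0.65 (Spearman) with that of the canonical genes. Reads of a gene and its pseudogene may not be separable, and this was not tested.

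The counts of 384 libraries correlated best with their own FPKM column, on log values. Those of E17.5 libraries 4 and 7 correlated slightly better with another library's column.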
